A study of Mus musculus with 18 samples.

Results

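The comparison asked how the response of the liver to forced cyclin E1 differed from the response of kidney and lung in mice of the same 2 genotypes. For each gene, the log2 fold change of CCNE-TA over TA in liver was set against the mean of its kidney and lung counterparts. The result is called the liver difference here: it is positive where CCNE-TA liver gained more transcript, or lost less, than the other organs. The contrast drew on 18 of the 18 libraries of the series, 6 from each tissue, in 1 fit of 6 groups. RNA came from whole liver, kidney and lung of C57BL/6 mice. CCNE-TA mice carried a Ccne1 transgene under tetracycline control together with rtTA, the activator that switches such a transgene on in the presence of doxycycline. TA mice carried rtTA alone. All groups, the controls included, received doxycycline from 3 weeks of age and were killed at 4 months, and each group of tissue and genotype had 3 libraries. The promoter that drives rtTA is not given in the sources used here. The labels also do not say whether libraries came from separate mice, so p-values measure only the spread between these libraries.

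Cyclin E1 binds the kinase CDK2 and drives cells from G1 into S phase, where replication origins fire. The cyclin is normally made only late in G1 and removed during S phase, and an excess of it can send cells into S phase with too little preparation for replication. Most hepatocytes of an adult liver rest outside the cell cycle, often with more than the diploid number of chromosome sets, and re-enter the cycle after injury. They also make most plasma proteins, lipoproteins, bile acids and detoxifying enzymes, so that many liver transcripts have no counterpart in kidney or lung. In whole tissue, fewer cells of a type and less RNA per cell cannot be told apart.

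Total counts ran from 26214869 to 61954486 in liver, 20352770 to 43202066 in kidney and 41597623 to 155323865 in lung. Levels are given as CPM, the counts scaled to a library of fixed size with TMM factors. A level of 3 counts equalled 0.0841 to 0.154 CPM in liver, 0.0614 to 0.114 in kidney and 0.0128 to 0.0501 in lung. Of the counts from 1 to 20 in each library, 64.2% to 71.2% were even numbers, and how the reads of a pair were counted is not given in the sources used here, so the totals may overstate the number of fragments. The 8 liver markers summed to 160000 to 302000 CPM over the 6 liver libraries, and the labelled tissue markers led in kidney and lung as well. The markers of another tissue were not even across groups. Liver markers summed to 41.0 to 213 CPM in CCNE-TA lung and 319 to 1710 CPM in TA lung, with the top value in lung TA 3. Kidney markers summed to 29.5 to 59.8 CPM in CCNE-TA liver and to 0.658, 0.681 and 32.3 CPM in TA liver, and Kap was at 0 in liver TA 2 and TA 3. Xist, a transcript of female cells, was high in 2 of 3 CCNE-TA and 1 of 3 TA liver libraries, and in 2 of 3 libraries of each kidney and lung group. Liver TA 2 stood at 0.470 CPM of Xist, whereas the libraries labelled TA 2 stood at 1056 CPM in kidney and 496 CPM in lung.

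The transgene itself was up in all 3 organs. Ccne1 (chromosome 7, 38097984 to 38107534, minus strand of mm10) stood at 519, 368 and 589 CPM in the CCNE-TA liver libraries and at 4.96, 3.57 and 4.33 CPM in the TA liver libraries. In kidney it stood at 744, 656 and 408 CPM against 2.16, 1.72 and 1.32 CPM. In lung it stood at 85.6, 45.4 and 52.3 CPM against 2.55, 4.14 and 0.701 CPM. CCNE-TA and TA libraries did not overlap in any organ, and the CCNE-TA level in lung was the lowest of the 3. The log2 fold change was 6.84 ± 0.56 (SE, n = 3 per group) in liver, 8.44 ± 0.60 in kidney and 4.62 ± 0.50 in lung. The liver difference of Ccne1 was 0.31 ± 0.54 and did not pass the test (edgeR adjusted p = 0.738), since liver lay between the other organs. Against lung alone the liver fold change was larger by 2.22 (edgeR adjusted p = 0.0316), and against kidney alone it was smaller by 1.60 without passing the test (edgeR adjusted p = 0.109).

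Of 17155 genes tested, 3392 had a liver difference at an edgeR adjusted p under 0.05, or 19.8%. The difference was positive in 1687 genes (9.83% of those tested) and negative in 1705 (9.94%), and it reached 1 on the log2 scale in 1377 positive genes (8.03%) and 1029 negative genes (6.00%). Liver against kidney alone gave 1634 genes (9.52%), 820 positive (4.78%) and 814 negative (4.74%). Liver against lung alone gave 2184 (12.7%), 1068 positive (6.23%) and 1116 negative (6.51%). Kidney against lung gave 1 gene (0.00583%). That gene was Psca, a surface antigen of epithelial cells. Positive genes made up 49.7% of the calls, 68.6% under upper quartile scaling and 61.7% under total count scaling. The same scalings moved the median difference of all genes from 0.085 to 0.275 and 0.22, so directions are relative to the TMM scaling used here. The count rested in part on single libraries of each organ. It was 2077 without liver CCNE-TA 1, 2165 without liver CCNE-TA 3, 2394 without lung TA 2 and 2587 without kidney CCNE-TA 2, but 4098 without liver CCNE-TA 2. The positive count was 1037 without liver TA 3, 1045 without liver CCNE-TA 3, 1098 without liver CCNE-TA 1 and 1099 without liver TA 2. The negative count was 979 without liver CCNE-TA 1 and 1120 without liver CCNE-TA 3. A further fit gave liver TA 2 and TA 3 a term of their own. It left liver TA 1 as the only liver control, so its effect sizes are given here and beside the lists without counts of calls. The median difference of all genes was 0.08 in that fit. Liver TA 2 and TA 3 differed from TA 1 in Xist and Kap, and the part of this in the results was not tested.

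Most of the called differences came from the liver term, while some drew on kidney or lung as well. Over the positive genes the median log2 fold change was 1.52 in liver, -0.034 in kidney and -0.015 in lung. Of these genes 88.3% lay within 0.5 of 0 in kidney and 91.0% in lung. Over the negative genes the medians were -1.08, 0.016 and 0.059, with 95.8% within 0.5 of 0 in kidney and 97.1% in lung. Over all tested genes the median liver difference was 0.08 and the median liver fold change 0.08 on the log2 scale. Most called genes were detected beyond liver: 73.5% of the positive and 94.3% of the negative genes reached a mean of 1 CPM in all 3 organs. Of all tested genes 69.2% did. This level does not set liver genes apart, since all 8 liver markers reached it in all 3 organs as well. Genes that reached 1 CPM in liver alone gave 23 positive and 13 negative calls out of 293, or 12.3%. Genes that reached it in kidney and lung but not in liver gave 162 positive and 11 negative calls out of 977, or 17.7%.

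**Figure D1:**
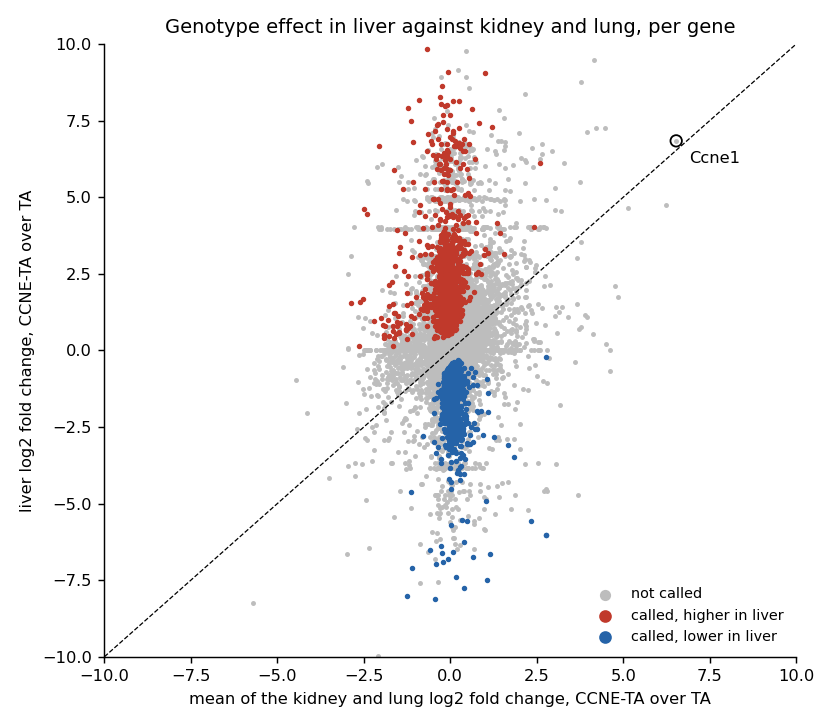
Log2 fold change of CCNE-TA over TA in liver (vertical axis) against the mean of the kidney and lung log2 fold changes (horizontal axis) for each gene, with red for called genes with a positive liver difference, blue for called genes with a negative one, grey for the rest and a dashed line of equal change (1 gene lies outside the axes). Red and blue genes spread along the vertical axis near 0 on the horizontal one, while Ccne1 lies close to the line of equal change at the upper right.

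Genes that act at mitosis had median fold changes above 0 in all 3 organs, and the liver difference was called in a few of them. The median log2 fold change over 29 mitotic kinases, cyclins and activators was 2.16 in liver, 1.24 in kidney and 0.72 in lung. Over 60 spindle, kinetochore and cytokinesis genes it was 1.92, 1.22 and 0.90. The liver difference passed the test in 5 of the 29 and 6 of the 60, all positive, or 17.2% and 10%. Of all genes 9.83% had a positive call and 19.8% a call in either direction. Called or not, the liver difference was above 0 in 28 of the 29 and 53 of the 60 genes. E2F factors are the transcription factors released when cyclin E1 and CDK2 act on the retinoblastoma protein. Their G1/S targets gave 1 positive and 2 negative calls out of 33, or 9.09%. Origin licensing and replication fork genes gave 0 of 41 with edgeR and 3 with DESeq2. The medians of the origin and fork genes were 0.54 in liver, 0.32 in kidney and 0.25 in lung. The mitotic calls were fragile: 0 of the 5 were left without liver CCNE-TA 3, without liver TA 2 or without liver TA 3, and 0 with limma-voom. They fell to 2 without lung TA 2, and to 3 without kidney CCNE-TA 2, kidney CCNE-TA 3 or liver TA 1. The spindle count fell to 2 without liver CCNE-TA 3 and to 3 without liver TA 2 or TA 3, and rose to 12 without kidney CCNE-TA 1.

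Psrc1, whose product helps to organise the mitotic spindle and which is also a target of p53, had the clearest difference among them. It stood at 9.59, 17.3 and 33.1 CPM in CCNE-TA liver and at 0.0561, 0.376 and 0.486 CPM in TA liver. In kidney it stood at 18.7, 5.83 and 6.52 against 0.932, 0.757 and 0.301 CPM, and in lung at 2.72, 1.91 and 3.12 against 1.29, 0.986 and 1.02 CPM. The groups did not overlap in any organ and lay farthest apart in liver, where liver TA 1 was below the level of 3 counts. For Psrc1 the liver difference was 3.54 ± 0.79 (SE, n = 3 per group; edgeR adjusted p = 0.00826). Ckap2, a microtubule stabiliser, stood at 7.07, 14.4 and 9.99 CPM against 0.785, 0.517 and 0.924 CPM in liver, with a liver difference of 2.39 ± 0.55 (edgeR adjusted p = 0.00899). Chek1, the kinase that holds cells with unreplicated DNA out of mitosis, stood at 1.90, 1.97 and 3.54 CPM against 0.224, 0.470 and 0.292 CPM in liver. In kidney and lung its log2 fold changes were 0.44 and 0.10, and the liver difference was 2.65 ± 0.55 (edgeR adjusted p = 0.00576). Chek1 was the 1 gene called out of 32 of homologous recombination and Fanconi repair. Psrc1, Ckap2 and Chek1 stayed called without any single library.

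Among the largest positive differences in transcripts that liver expressed was Mybl1, a transcription factor of the MYB family. Mybl1 stood at 8.05, 7.35 and 22.1 CPM in CCNE-TA liver and at 0.392, 0.658 and 0.778 CPM in TA liver. In kidney its libraries ran from 0.889 to 3.14 CPM in CCNE-TA and 0.942 to 1.23 CPM in TA, and in lung from 1.19 to 1.36 and 0.818 to 1.26 CPM. The liver groups were far apart, whereas those of kidney and lung overlapped. The liver difference of Mybl1 was 3.93 ± 0.62 (edgeR adjusted p = 0.00196). Its relative Mybl2, which drives genes of late S phase and mitosis, stood at 2.17, 1.31 and 4.00 against 0.617, 0.423 and 0.292 CPM in liver, with a liver difference of 2.34 ± 0.64 (edgeR adjusted p = 0.0208). Without liver CCNE-TA 3, TA 2 or TA 3 the adjusted p of Mybl2 was 0.072, 0.0509 and 0.0594.

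The liver difference was positive in a part of the targets of p53, the transcription factor that answers DNA damage with arrest or cell death. Of 39 tested, 12 had a positive and 1 a negative liver difference, or 33.3% called against 19.8% of all genes. The median was 0.80 in liver, 0.25 in kidney and 0.05 in lung. Phlda3, which restrains the growth kinase AKT, stood at 22.3, 39.0 and 27.8 CPM in CCNE-TA liver and 2.21, 3.57 and 2.29 CPM in TA liver. In kidney it stood at 35.5, 34.1 and 31.1 against 18.1, 12.8 and 14.01 CPM, and in lung at 34.8, 37.8 and 45.8 against 41.1, 45.1 and 46.2 CPM. Thus the groups were apart in liver and, by less, in kidney, and they overlapped in lung. The log2 fold changes of Phlda3 were 3.47 in liver, 1.17 in kidney and -0.16 in lung, a liver difference of 2.97 ± 0.28 (edgeR adjusted p = 7.82e-05). Bax, which opens the outer mitochondrial membrane in apoptosis, stood at 93.0, 94.4 and 110 CPM against 32.4, 27.4 and 29.4 CPM in liver. Its fold changes in kidney and lung were 0.25 and 0.10 on the log2 scale, and the liver difference was 1.56 ± 0.18 (edgeR adjusted p = 0.000363). Of the exon bases of Bax, 12.2% are shared with another annotated gene, and the library kit does not mark strand.

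Tnfrsf10b, a death receptor for TRAIL, stood at 7.03, 9.69 and 10.6 CPM in CCNE-TA liver and 1.96, 1.18 and 1.17 CPM in TA liver, with a liver difference of 2.66 ± 0.33 (edgeR adjusted p = 0.000516). Polk, a polymerase that copies past damaged bases, stood at 14.1, 14.8 and 15.3 against 6.42, 7.38 and 6.66 CPM, with a liver difference of 1.16 ± 0.19 (edgeR adjusted p = 0.00232). The fold changes were 0.04 in kidney and -0.05 in lung for Tnfrsf10b, and 0.00 and -0.10 for Polk. The other positive p53 targets were Gdf15, Aen, Bbc3, Plk2, Ddb2 and Fdxr besides Psrc1 and Ckap2, which also belong to the spindle list. The negative one was Xpc, a sensor of DNA lesions. Cdkn1a, the best known arrest gene of p53, had a liver difference of 1.34 that did not pass the test. The 12 positive calls became 8 without liver TA 2 and 4 with kidney alone as reference. With the term for liver TA 2 and TA 3 the median difference of the list was 0.57 in place of 0.63.

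**Figure D2:**
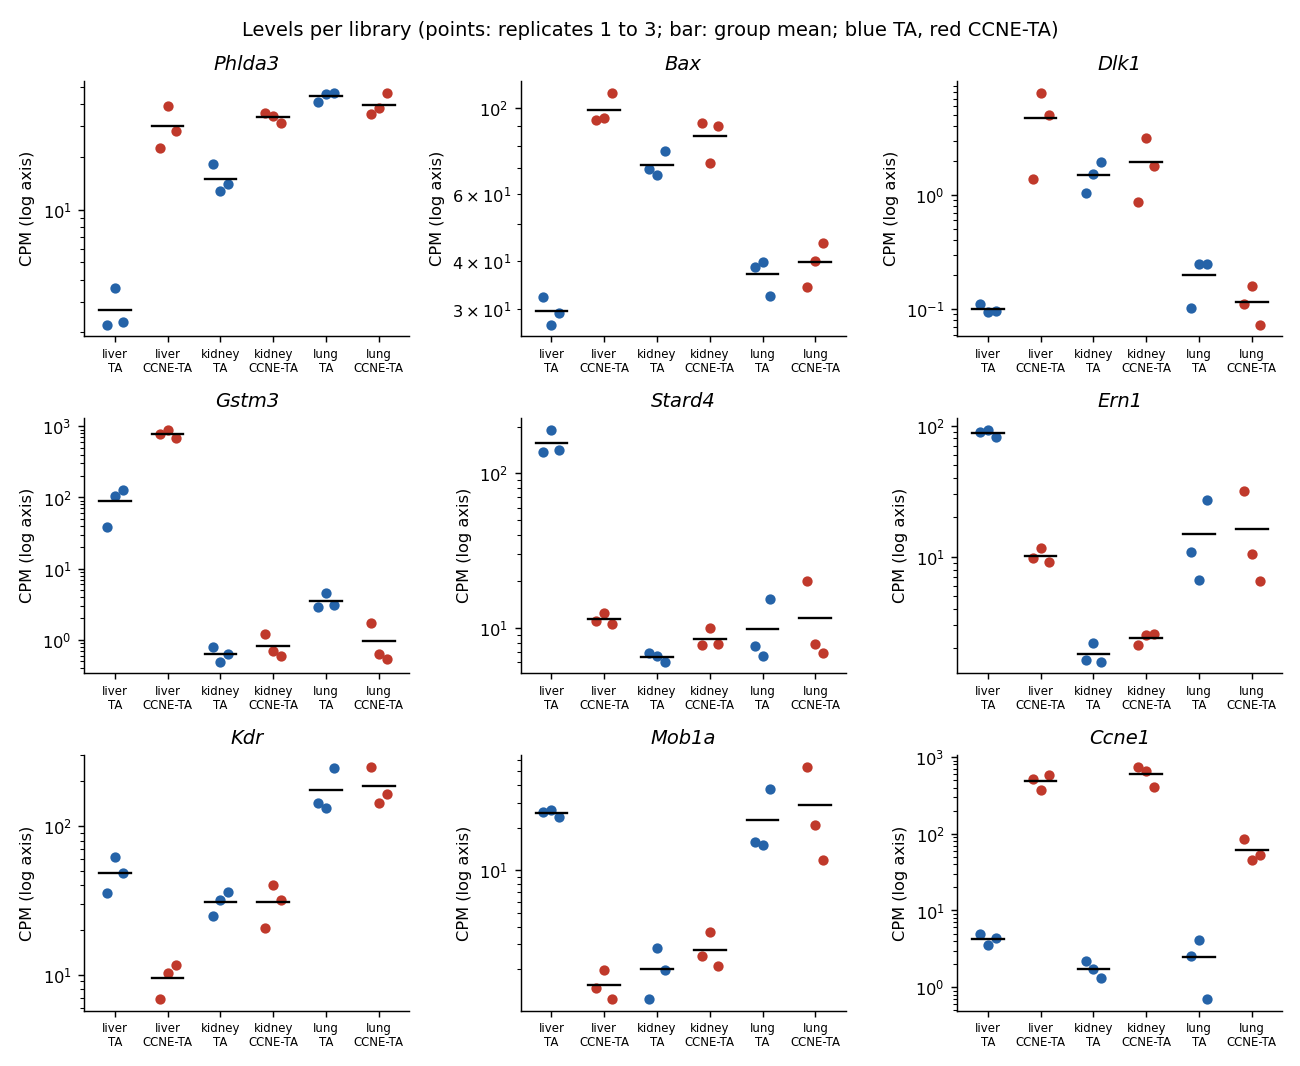
CPM on log axes of 9 genes in each library by tissue and genotype (blue TA, red CCNE-TA, points from left to right replicates 1 to 3, bar the group mean, n = 3 per group). Phlda3, Bax, Dlk1 and Gstm3 separate upward and Stard4, Ern1, Kdr and Mob1a downward in liver, Phlda3 separates by less in kidney, and Ccne1 separates in all 3 organs; in lung the TA 3 and CCNE-TA 1 libraries are high for Stard4, Ern1, Kdr and Mob1a.

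Oncofetal and progenitor genes, made in fetal liver or in the bipotent cells of the bile duct region and often again in liver tumours, gave 12 positive and 1 negative call out of 30, or 43.3% against 19.8% of all genes. Their median log2 fold change was 1.19 in liver, 0.28 in kidney and 0.04 in lung. Dlk1, a membrane ligand of the Notch family typical of fetal hepatoblasts, stood at 1.37, 7.89 and 5.02 CPM in CCNE-TA liver. In TA liver it stood at 0.112, 0.0941 and 0.0973 CPM, close to the level of 3 counts. Kidney had 0.871 to 3.15 CPM in CCNE-TA and 1.04 to 1.96 CPM in TA, groups that overlapped, and lung lay between 0.0731 and 0.250 CPM. Dlk1 had a liver difference of 5.72 ± 0.85 (edgeR adjusted p = 0.00134). Mdk, a heparin-binding growth factor of the embryo, stood at 5.08, 2.59 and 4.51 CPM against 0.561, 0.517 and 0.292 CPM in liver, with a liver difference of 3.19 ± 0.51 (edgeR adjusted p = 0.00197).

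Meg3, a noncoding RNA of the imprinted cluster that also holds Dlk1, stood at 79.8, 31.1 and 303 CPM in CCNE-TA liver and 8.24, 7.67 and 4.33 CPM in TA liver. In kidney Meg3 ran from 3.56 to 7.38 CPM in CCNE-TA and 2.41 to 7.27 CPM in TA, and in lung from 6.77 to 14.3 and 7.08 to 11.9 CPM. Liver CCNE-TA 3 was highest, and kidney and lung groups overlapped. The liver difference of Meg3 was 4.28 ± 0.80 (edgeR adjusted p = 0.00425). The negative gene of the list was Igf2bp2, an RNA-binding protein, at 1.11, 1.07 and 0.410 against 2.13, 2.21 and 2.58 CPM in liver, with a liver difference of -1.49 ± 0.44 (edgeR adjusted p = 0.0288). Igf2bp2 lost its call without liver CCNE-TA 3, liver TA 2, liver TA 3 or lung TA 2, at adjusted p values of 0.0737, 0.0503, 0.064 and 0.0502. The 12 positive calls of the list became 7 without liver TA 2 and 7 with kidney alone as reference. Its median difference was 1.27 with the term for liver TA 2 and TA 3, in place of 1.36.

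Bile duct cell markers had the highest share of calls among the lists of at least 20 genes. Of 27 tested, 15 had a positive and 1 a negative liver difference, or 59.3% against 19.8% of all genes, and their median log2 fold change was 1.22 in liver, 0.15 in kidney and -0.15 in lung. The summed level of the 27 markers ran from 3890 to 6420 CPM in CCNE-TA liver and 3440 to 3750 CPM in TA liver, with none of them at 0. Many of these genes are also expressed by the tubules of the kidney and the airways of the lung. Epcam, an adhesion molecule of duct and progenitor cells, stood at 12.3, 11.4 and 5.18 CPM against 3.00, 1.65 and 2.72 CPM in liver. It ran from 89.7 to 124 CPM over the kidney libraries and 44.7 to 67.1 CPM over the lung libraries, with the genotypes overlapping in both. For Epcam the liver difference was 2.01 ± 0.34 (edgeR adjusted p = 0.00249).

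Cldn7 and Cldn4, claudins of tight junctions, were also positive. Cldn7 stood at 3.32, 3.62 and 2.51 CPM against 0.757, 0.658 and 0.584 CPM in liver (difference 2.28 ± 0.32, edgeR adjusted p = 0.000995). Cldn4 stood at 1.28, 1.60 and 1.28 CPM against 0.280, 0.282 and 0.292 CPM (difference 2.39 ± 0.35, edgeR adjusted p = 0.00118). Within liver the 3 libraries of each genotype lay close together for both. Ddit4l, an inhibitor of mTORC1 signalling that is also on this list, stood at 13.7, 17.8 and 15.1 CPM against 0.869, 1.79 and 1.26 CPM (difference 3.50 ± 0.36, edgeR adjusted p = 0.000148). The keratins Krt7, Krt8, Krt18 and Krt19 were among the positive genes, whereas the duct transcription factor Sox9 had a difference of 0.91 that did not pass the test. Aqp1, a water channel of bile ducts, endothelium and kidney tubules, was the negative gene, at 37.0, 57.1 and 29.6 against 117, 165 and 108 CPM (difference -1.85 ± 0.43, edgeR adjusted p = 0.00998). The positive count became 8 without liver CCNE-TA 1, 9 without liver TA 2 and 8 with kidney alone as reference. The median difference of the list was 1.55 with the term for liver TA 2 and TA 3, in place of 1.27.

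Spint1, a serine protease inhibitor of epithelial surfaces, and Gipc2 and Mtmr11 shared this pattern of a low level in TA liver and an even level in kidney and lung. Spint1 stood at 6.90, 6.20 and 8.66 CPM in CCNE-TA liver and 1.71, 1.51 and 0.973 CPM in TA liver, while kidney libraries ran from 126 to 159 CPM and lung libraries from 50.8 to 60.9 CPM. Its liver difference was 2.35 ± 0.23 (edgeR adjusted p = 9.69e-05). Gipc2, a PDZ scaffold protein, stood at 3.58, 3.98 and 5.38 CPM against 0.252, 0.282 and 0.0973 CPM in liver, with a difference of 4.61 ± 0.41 (edgeR adjusted p = 7.82e-05). Mtmr11, of the myotubularin family, stood at 42.3, 23.2 and 49.9 against 3.78, 2.96 and 2.04 CPM, with a difference of 3.57 ± 0.34 (edgeR adjusted p = 7.82e-05). The liver groups of all 3 genes were apart by more than the spread within them. Other annotated genes overlap 20.9% of the exon bases of Gipc2 and 37.8% of those of Mtmr11, in the latter case on the opposite strand, so part of their reads may belong to those genes.

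Among genes of glutathione conjugation, which tags foreign compounds for export, Gstm3, Gstm1 and Gsta1 had positive differences. Of 37 tested targets of the oxidative stress factor NRF2 and glutathione enzymes, 9 had a positive and 1 a negative difference, or 27.0% against 19.8% of all genes, with medians of 0.60 in liver, 0.08 in kidney and -0.14 in lung. Gstm3 stood at 771, 893 and 686 CPM in CCNE-TA liver and 38.3, 104 and 125 CPM in TA liver. All kidney libraries lay between 0.491 and 1.21 CPM, and lung had 0.539 to 1.74 CPM in CCNE-TA against 2.87 to 4.56 CPM in TA. Its log2 fold changes were 3.14 in liver, 0.38 in kidney and -1.84 in lung, so that both liver and lung contributed to the difference of 3.87 ± 0.56 (edgeR adjusted p = 0.00129). Gstm1, the most abundant of them by CPM, stood at 8336, 6712 and 8562 against 1766, 2133 and 2517 CPM in liver, a difference of 1.93 ± 0.36 (edgeR adjusted p = 0.00364). Gsta1 stood at 33.7, 59.4 and 131 against 0.729, 0.658 and 3.26 CPM, a difference of 5.08 ± 0.81 (edgeR adjusted p = 0.00197). The near-identical gene Gm3776 moved with it, at 20.7, 27.4 and 62.8 against 0.168, 0.282 and 1.46 CPM, and how reads were shared between Gsta1 and Gm3776 is uncertain. Not every NRF2 target rose: Txnrd1, a thioredoxin reductase, stood at 138, 150 and 132 against 272, 218 and 334 CPM (difference -0.96 ± 0.25, edgeR adjusted p = 0.015).

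Of 28 genes of cholesterol synthesis and uptake, 10 had a negative and 0 a positive liver difference, or 35.7% against 19.8% of all genes, and the median log2 fold change was -0.96 in liver, 0.10 in kidney and -0.02 in lung. Stard4, which carries cholesterol between membranes and is a target of the sterol-sensing factor SREBP2, stood at 11.1, 12.5 and 10.6 CPM in CCNE-TA liver and 137, 191 and 141 CPM in TA liver. In kidney it stood at 7.69, 10.1 and 7.84 against 6.86, 6.57 and 6.03 CPM, and in lung at 20.2, 7.86 and 6.87 against 7.62, 6.60 and 15.4 CPM. The liver groups lay far apart, the kidney groups lay next to each other without overlap and the lung groups overlapped. The liver difference of Stard4 was -4.10 ± 0.46 (edgeR adjusted p = 0.000262). Srebf2, which encodes SREBP2, stood at 48.3, 51.5 and 40.8 against 129, 110 and 107 CPM, a difference of -1.35 ± 0.27 (edgeR adjusted p = 0.00522).

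Sqle, the squalene epoxidase, stood at 77.2, 123 and 103 against 237, 225 and 214 CPM (difference -1.24 ± 0.27, edgeR adjusted p = 0.00688). The count of 10 was 5 without liver CCNE-TA 1, liver TA 2, lung TA 1 or lung TA 2, and 6 without kidney TA 1, liver CCNE-TA 3 or lung CCNE-TA 1. It was 6 under upper quartile and under total count scaling, 6 with kidney alone and 4 with lung alone as reference, and 4 with Xist as a covariate. In these settings 1 member had a positive call without liver CCNE-TA 3, and none had one in the others. The term for liver TA 2 and TA 3 moved the median difference of the list from -0.93 to -0.41.

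Fatty acid and triglyceride synthesis followed, with 7 negative and 1 positive call out of 29, or 27.6% against 19.8% of all genes. The medians were -0.66, -0.02 and -0.04 in liver, kidney and lung. Srebf1, which encodes the lipogenic factor SREBP1, stood at 151, 138 and 162 against 444, 260 and 544 CPM in liver, a difference of -1.38 ± 0.27 (edgeR adjusted p = 0.00445). Gpam, the mitochondrial enzyme that starts glycerolipid synthesis, stood at 22.4, 24.1 and 28.2 against 167, 300 and 196 CPM, a difference of -3.03 ± 0.59 (edgeR adjusted p = 0.00483). Acly, which makes cytosolic acetyl-CoA from citrate, stood at 121, 136 and 72.3 against 393, 577 and 514 CPM, a difference of -2.36 ± 0.48 (edgeR adjusted p = 0.00546). In each of the 3 genes the CCNE-TA liver libraries lay together under all TA libraries. Mlxipl, the carbohydrate-sensing lipogenic factor ChREBP, was the positive one at 793, 429 and 767 against 336, 296 and 304 CPM, with a difference of 1.58 ± 0.50 (edgeR adjusted p = 0.0366). The call of Mlxipl was lost in 16 of 39 other settings. The 7 negative calls became 4 without liver CCNE-TA 1, 3 without liver CCNE-TA 3 and 4 with lung alone as reference. The median difference of the list was -0.39 with the term for liver TA 2 and TA 3, in place of -0.45. Fasn and Scd1, the synthase and the main desaturase, had differences of -1.29 and -0.69 that did not pass.

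Glycolysis and gluconeogenesis gave 6 negative and 1 positive call out of 38, or 18.4%, a share below the 19.8% of all genes, with medians of -0.53, -0.04 and -0.13. Pfkl, the liver phosphofructokinase, stood at 43.5, 42.4 and 40.9 against 81.1, 78.3 and 68.1 CPM (difference -0.90 ± 0.15, edgeR adjusted p = 0.00233). Pdk1, which switches off pyruvate dehydrogenase, stood at 74.4, 77.7 and 47.3 against 135, 151 and 133 CPM (difference -1.12 ± 0.23, edgeR adjusted p = 0.00538). Pdpr, which acts on the opposing phosphatase, stood at 1.02, 1.81 and 1.44 against 27.3, 29.0 and 21.6 CPM (difference -4.16 ± 0.75, edgeR adjusted p = 0.00309). Pdk1 and Pdpr, which act on pyruvate dehydrogenase in opposite senses, were both lower in CCNE-TA liver.

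The unfolded protein response, by which the endoplasmic reticulum raises its chaperones when secretory proteins misfold, had called members among its sensors and its target chaperones. Of 28 genes, 11 had a negative and 0 a positive liver difference, or 39.3% against 19.8% of all genes, and the medians were -0.93 in liver, 0.00 in kidney and -0.06 in lung. Among the sensors, Ern1, the kinase and nuclease IRE1, stood at 9.86, 11.6 and 9.17 CPM in CCNE-TA liver and 89.5, 93.0 and 82.5 CPM in TA liver. In kidney it ran from 2.12 to 2.56 CPM in CCNE-TA and 1.58 to 2.21 CPM in TA, and in lung from 6.60 to 31.8 and 6.70 to 27.3 CPM. The liver groups were tight and far apart, and the other organs overlapped. Ern1 had a liver difference of -3.38 ± 0.62 (edgeR adjusted p = 0.00359). Atf6, the sensor that is cleaved into a transcription factor, stood at 63.0, 88.9 and 60.9 against 174, 214 and 200 CPM in liver, a difference of -1.39 ± 0.25 (edgeR adjusted p = 0.00289). Sel1l, of the complex that hands misfolded proteins to the proteasome, stood at 130, 115 and 122 against 254, 330 and 308 CPM, a difference of -1.29 ± 0.22 (edgeR adjusted p = 0.00234).

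ATF6 binds the endoplasmic reticulum stress response element, CCAAT and CCACG held 9 bases apart. In the 250 bases before each gene's start in the RefSeq promoters of GRCm38.p6, the element was found on either strand in 37 of 32851 windows (0.113%) and in 20 of 12655 tested genes (0.158%). It was found in 8 of 25 matched unfolded protein response genes (32%). Of those 8, 4 had a negative call, and their windows are shown because they join the list to the element: each runs 5′ to 3′ on the gene's own strand with 40 bases on each side, and capitals mark CCAAT and CCACG or their complements. Creld2 lies on chromosome 15, plus strand, 88819480 to 88819578, and holds the element on the opposite strand. Dnajc3 lies on chromosome 14, plus strand, 118937787 to 118937885, Canx on chromosome 11, minus strand, 50325760 to 50325858, and Hspa5 on chromosome 2, plus strand, 34771985 to 34772083.
Creld2: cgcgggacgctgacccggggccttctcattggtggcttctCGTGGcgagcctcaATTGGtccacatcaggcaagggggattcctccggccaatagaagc
Dnajc3: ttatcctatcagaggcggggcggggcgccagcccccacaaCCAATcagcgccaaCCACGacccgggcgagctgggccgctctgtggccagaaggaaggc
Canx: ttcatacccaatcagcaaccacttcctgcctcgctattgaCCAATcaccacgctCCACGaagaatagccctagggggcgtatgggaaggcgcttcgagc
Hspa5: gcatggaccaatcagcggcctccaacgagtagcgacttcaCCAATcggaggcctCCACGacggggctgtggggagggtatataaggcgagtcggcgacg
The element's first base lies 126 bases before the start in Creld2, 105 in Dnajc3, 145 in Canx and 65 in Hspa5. A match of letters is a description of the window and shows no binding.

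Creld2, a secreted stress chaperone, stood at 44.7, 30.6 and 34.1 CPM in CCNE-TA liver and 72.3, 82.8 and 174 CPM in TA liver, a difference of -1.55 ± 0.34 (edgeR adjusted p = 0.0074). Dnajc3, a co-chaperone that also restrains translation arrest, stood at 189, 215 and 114 against 500, 456 and 545 CPM, a difference of -1.48 ± 0.36 (edgeR adjusted p = 0.0116). Both kept their call without any single library. Canx, the lectin chaperone calnexin, had a difference of -1.51 ± 0.43 (edgeR adjusted p = 0.0241) that was lost without liver CCNE-TA 1, liver CCNE-TA 3, liver TA 2 or liver TA 3, at adjusted p values of 0.069, 0.0643, 0.0513 and 0.0505. Hspa5, the master chaperone BiP, stood at 742, 724 and 362 against 1168, 1839 and 2681 CPM. Its difference of -1.50 ± 0.49 (edgeR adjusted p = 0.0426) was lost on leaving out any of 12 of the 18 libraries, the highest adjusted p being 0.132. The other 4 genes with the element, Pdia6, Hsp90b1, Calr and Derl3, had differences of -0.70, -0.62, -0.45 and 0.23 that did not pass. Of the tested genes outside the list with the element, Acacb had a negative call (-1.29), Hnrnpa3 (1.08), Zfp57 (2.90) and Xlr3b (8.63) had positive ones, and the rest were not called. The list as a whole gave 8 to 12 negative calls on leaving out single libraries and 10 with offsets for length and GC content. Its median difference moved from -0.86 to -0.55 with the term for liver TA 2 and TA 3.

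**Figure D3:**
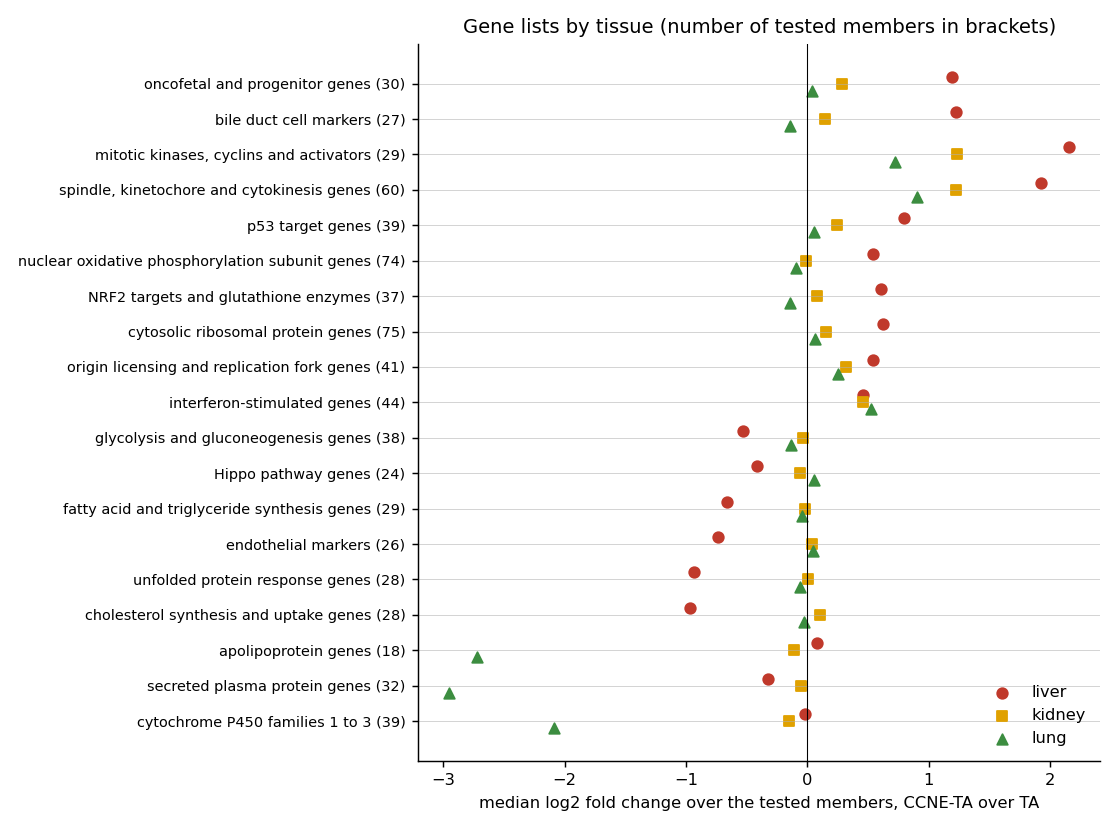
Median log2 fold change of CCNE-TA over TA (horizontal axis) over the tested members of 19 gene lists in liver (red circles), kidney (yellow squares) and lung (green triangles). Liver stands apart to the right for the bile duct, oncofetal and p53 lists and to the left for the sterol, unfolded protein and endothelial lists; all 3 organs lie to the right for the mitotic lists and near 0.5 for interferon-stimulated genes, and lung alone lies far to the left for the 3 lists of hepatocyte products.

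The Hippo pathway, a kinase chain that keeps the growth factor YAP out of the nucleus and limits liver size, gave 7 negative and 0 positive calls out of 24, or 29.2% against 19.8% of all genes, and 9.94% of all genes had a negative call. The called members were regulators of YAP: Mob1a, Mob1b, Wwc1, Lats2, Nf2 and Taok3 were among them. Mob1a, the cofactor of the LATS kinases, had the most negative difference among called genes with a mean log2 CPM of at least 1 in liver and no overlap of the liver groups. It stood at 1.46, 1.97 and 1.23 CPM in CCNE-TA liver and 26.0, 26.5 and 23.8 CPM in TA liver. In kidney it ran from 2.10 to 3.66 CPM in CCNE-TA and 1.23 to 2.82 CPM in TA. In lung it stood at 53.8, 21.1 and 11.9 against 15.9, 15.01 and 37.4 CPM, high in lung CCNE-TA 1 and lung TA 3. The liver difference of Mob1a was -4.42 ± 0.62 (edgeR adjusted p = 0.000995). Its paralog Mob1b stood at 6.23, 8.96 and 4.97 against 33.8, 40.2 and 28.2 CPM in liver (difference -2.27 ± 0.41, edgeR adjusted p = 0.00304). Wwc1, the scaffold KIBRA, stood at 24.5, 24.4 and 31.9 against 114, 78.6 and 114 CPM (difference -1.86 ± 0.38, edgeR adjusted p = 0.00582). The YAP target genes Cyr61 and Ankrd1 had differences of 1.43 and 1.53 and Ctgf of -0.04, none of which passed. The list gave 4 negative calls with offsets for length and GC content and 4 with kidney alone as reference. Its median difference was -0.416 in the main fit, -0.113 with the offsets for length and GC content and -0.41 with the term for liver TA 2 and TA 3.

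By the same rule, the most negative differences after those of Mob1a, Pdpr and Stard4 belonged to Lmbrd2, Mia2, Uhmk1, Rassf8, Pik3ap1, Megf9, Cyb5d1, Xpnpep3 and Eif4ebp2, with liver differences from -4.32 to -3.78. Mia2, which helps to export large cargo such as lipoproteins from the endoplasmic reticulum, stood at 4.86, 8.38 and 7.33 CPM in CCNE-TA liver and 140, 143 and 123 CPM in TA liver. Kidney and lung libraries of Mia2 lay between 0.137 and 2.57 CPM. Its liver difference was -4.32 ± 0.82 (edgeR adjusted p = 0.00448). Eif4ebp2, a brake on cap-dependent translation, stood at 13.3, 17.6 and 8.2 against 148, 186 and 145 CPM in liver, a difference of -3.78 ± 0.65 (edgeR adjusted p = 0.00264). Its lung libraries ran from 11.4 to 49.5 CPM with CCNE-TA 1 and TA 3 highest. Of these 9 genes none lost its call on leaving out a single library. By smallest p among genes expressed in all 3 organs, the negative genes included Stard4, BC005537, Ppp2r5a, Ipo8, Capza2, Alg10b and Dnajc14. Ipo8, a nuclear import receptor, stood at 30.3, 35.2 and 41.4 against 97.6, 98.6 and 95.6 CPM in liver, and its kidney and lung fold changes were -0.03 and 0.07. For Ipo8 the liver difference was -1.47 ± 0.18 (edgeR adjusted p = 0.000465).

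Transcript length moved with the liver difference. Across 16992 genes with a length, which are not independent replicates, Spearman's rho between length and the liver difference was -0.294. It was -0.284 for the liver fold change, -0.030 for kidney and 0.111 for lung. In the shortest of 10 equal groups of genes the median liver difference was 0.80, with 21.0% positive and 0.941% negative calls. In the longest group the median was -0.38, with 4.18% positive and 22.6% negative calls. The median length was 2448 nucleotides for positive genes, 4584 for negative genes and 3165.5 for all. With offsets per library for length and GC content, rho was -0.0277 and 2770 genes were called (1554 positive and 1216 negative), of which 2175 were called without offsets as well. With the offsets, bile duct markers gave 9 positive calls, oncofetal genes 10, p53 targets 12 and glutathione enzymes 9, and negative calls numbered 8 for sterol genes, 10 for the unfolded protein response and 6 for endothelial markers. Whether the shift with length arose in the tissue or in the libraries was not tested.

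**Figure D4:**
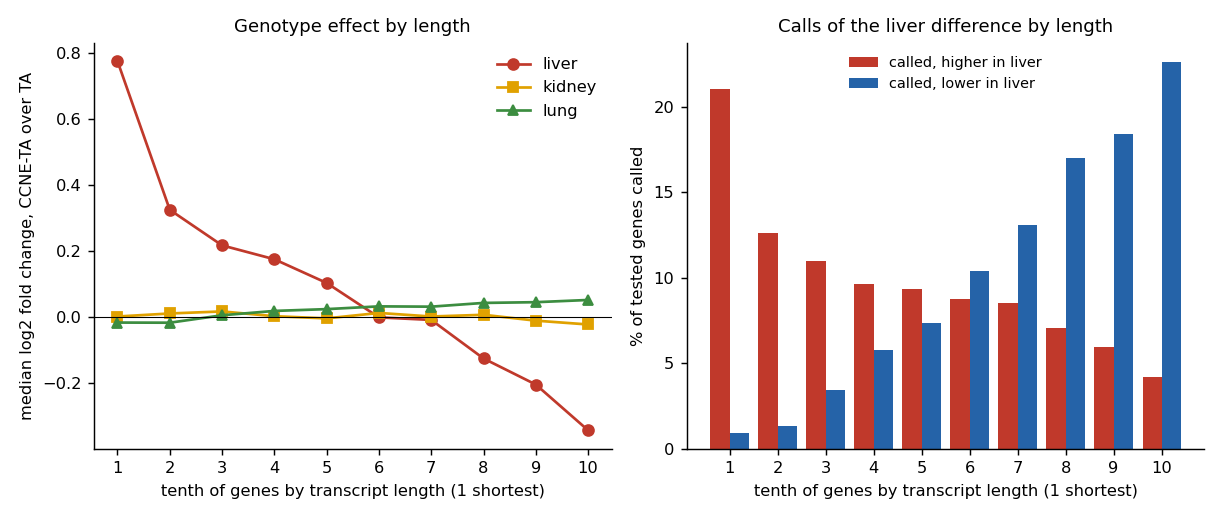
Left, median log2 fold change of CCNE-TA over TA in liver, kidney and lung (vertical axis) by 10 equal groups of genes in order of transcript length (horizontal axis); right, percent of genes in each group with a called positive (red) or negative (blue) liver difference. The liver median falls from the shortest to the longest group while kidney and lung stay near 0, and positive calls fall from 21.0% to 4.18% as negative calls climb from 0.941% to 22.6%.

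Of 75 cytosolic ribosomal protein genes, 21 had a positive and 0 a negative difference, or 28.0%. Of 74 nuclear genes for subunits of oxidative phosphorylation, 32 had a positive and 1 a negative one, or 44.6%, and 19.8% of all genes were called. The medians were 0.62, 0.15 and 0.07 in liver, kidney and lung for the first list and 0.54, -0.01 and -0.10 for the second. Rpl36, of the large ribosomal subunit, stood at 585, 427 and 596 against 204, 243 and 220 CPM in liver, a difference of 1.11 ± 0.23 (edgeR adjusted p = 0.00616). With the offsets for length and GC content the difference of Rpl36 was -0.154. Under those offsets the ribosomal list gave 2 positive and 4 negative calls with a median of -0.03, so its direction did not hold. The ribosomal count was also 8 without liver CCNE-TA 1, 9 without liver TA 1, 13 without liver TA 2 and 12 without liver TA 3. It was 11 without lung TA 1 and 12 without lung TA 2. The respiratory list gave 18 positive and 4 negative calls under the offsets, with a median of 0.21. It gave 23 to 34 positive calls without single libraries and 9 with a replicate block and Xist as a covariate. The term for liver TA 2 and TA 3 moved the median difference from 0.47 to 0.56 for the ribosomal list and from 0.65 to 0.81 for the respiratory list. Ndufc1, a small subunit of complex I, stood at 129, 117 and 109 against 47.9, 55.8 and 58.7 CPM in liver (difference 1.25 ± 0.22, edgeR adjusted p = 0.00278). Cox6b2, a form of a complex IV subunit best known from testis, stood at 3.32, 8.30 and 19.1 against 0.505, 0.0941 and 0.195 CPM in liver. In kidney Cox6b2 stood at 26.1, 20.7 and 16.8 against 11.3, 10.8 and 6.89 CPM, groups that also did not overlap, and its liver difference was 4.63 ± 0.70 (edgeR adjusted p = 0.00153).

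Of 26 endothelial markers, 10 had a negative and 0 a positive liver difference, or 38.5% against 19.8% of all genes, with medians of -0.73, 0.04 and 0.05. Their summed level ran from 679 to 754 CPM in CCNE-TA liver and 892 to 1230 CPM in TA liver, with none at 0. Kdr, the main VEGF receptor, stood at 6.85, 10.2 and 11.5 CPM against 35.6, 62.0 and 48.4 CPM in liver. In kidney it ran from 20.7 to 40.3 and 24.8 to 35.8 CPM, and in lung from 144 to 251 and 133 to 245 CPM. The liver groups were apart and those of the other organs overlapped. The liver difference of Kdr was -2.40 ± 0.39 (edgeR adjusted p = 0.00199). Pecam1, an adhesion molecule of all endothelium, stood at 15.1, 19.2 and 13.5 against 33.6, 38.9 and 32.4 CPM (difference -1.22 ± 0.23, edgeR adjusted p = 0.00402), and Cdh5, the cadherin of endothelial junctions, at 22.9, 16.8 and 14.4 against 42.1, 40.1 and 31.9 CPM (difference -1.17 ± 0.27, edgeR adjusted p = 0.0098). Lyve1, a receptor of the liver sinusoids, was called, whereas the sinusoidal genes Stab1, Stab2 and Clec4g were not, with differences of 0.33, -0.39 and -0.31. The count was 6 without liver CCNE-TA 3 or liver TA 2 and 6 with the offsets for length and GC content. With the term for liver TA 2 and TA 3 the median difference of the list was -0.56 in place of -0.71.

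Immune genes did not set liver apart as a group. Interferon-stimulated genes had median log2 fold changes of 0.46 in liver, 0.46 in kidney and 0.53 in lung. Their liver difference was called positive in 1 and negative in 5 of 44, or 13.6% against 19.8% of all genes. Eif2ak2, the kinase PKR that stops translation on double-stranded RNA, stood at 20.6, 18.4 and 19.7 against 44.7, 31.3 and 37.0 CPM in liver and had fold changes of 0.37 in kidney and 0.29 in lung. Its liver difference was -1.27 ± 0.30 (edgeR adjusted p = 0.0102), and it was lower in all 3 CCNE-TA liver libraries. The 5 negative calls became 1 without liver TA 3, 2 without liver CCNE-TA 1 or CCNE-TA 3, and 3 without liver TA 1 or lung TA 2, and the median of the list turned to 0.06 under upper quartile scaling. T, NK and B cell markers had medians of 0.81, 0.87 and 0.91 and gave 0 calls out of 25 with edgeR and 1 with DESeq2. Neutrophil markers gave 0 of 10 with edgeR and 2 with DESeq2.

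Macrophage genes split. Emr1, the older symbol of Adgre1, encodes the F4/80 antigen of Kupffer cells and other macrophages. It stood at 12.2, 9.69 and 10.5 CPM in CCNE-TA liver and 69.9, 25.4 and 35.4 CPM in TA liver. In kidney it stood at 5.08, 3.02 and 3.07 against 1.45, 2.11 and 1.77 CPM, and in lung at 42.2, 12.5 and 8.44 against 8.24, 10.4 and 10.2 CPM. CCNE-TA was thus lower in liver and higher in kidney without overlap, and the lung groups overlapped. The fold changes were -2.02, 1.05 and 1.13, and the liver difference of Emr1 was -3.11 ± 0.59 (edgeR adjusted p = 0.00425), kept in all 39 other settings. Of 20 other macrophage markers, 1 was positive and 1 negative. Trem2, a lipid receptor of scar- and tumour-associated macrophages, stood at 5.70, 2.55 and 10.3 against 0.561, 0.893 and 0.584 CPM in liver (difference 2.66 ± 0.69, edgeR adjusted p = 0.0158; 0.0556 without liver CCNE-TA 3). Mrc1, the mannose receptor of macrophages and sinusoidal endothelium, stood at 36.9, 35.1 and 33.5 against 67.8, 73.0 and 49.6 CPM (difference -1.24 ± 0.35, edgeR adjusted p = 0.0237; 0.057 without liver CCNE-TA 3 and 0.0611 without liver TA 2). The summed macrophage markers overlapped between the liver groups, at 765 to 1470 CPM in CCNE-TA and 813 to 1820 CPM in TA.

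The median fold changes of hepatocyte products lay farthest from 0 in lung. The apolipoproteins had a median log2 fold change of 0.08 in liver, -0.11 in kidney and -2.72 in lung. Of 18, 6 had a positive and 1 a negative liver difference, or 38.9% against 19.8% of all genes. Secreted plasma proteins had medians of -0.32, -0.05 and -2.95 with 1 positive call out of 32 (3.12%). Cytochromes P450 of families 1 to 3 had -0.02, -0.15 and -2.08 with 4 positive calls out of 39 (10.3%). Of all genes 9.83% had a positive call. The liver markers in lung, 41.0 to 213 CPM in CCNE-TA and 319 to 1710 CPM in TA, moved with these values, and their part in the result was not tested. Against kidney alone, the apolipoproteins gave 1 positive and 2 negative calls, and the plasma proteins and the P450 genes gave 0. Without lung TA 3 the apolipoproteins gave 6 positive calls with a median of 0.97 in place of 1.59.

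The small apolipoproteins C did differ in liver itself. Apoc3, which slows the clearance of triglyceride-rich lipoproteins, stood at 8183, 7051 and 7005 CPM in CCNE-TA liver and 3425, 3011 and 3177 CPM in TA liver. In lung Apoc3 stood at 3.54, 3.36 and 1.37 against 14.97, 21.3 and 45.1 CPM, and in kidney the groups overlapped. The fold changes were 1.21, 0.01 and -3.29 in liver, kidney and lung, and the difference of Apoc3 was 2.85 ± 0.50 (edgeR adjusted p = 0.00268). Apoc4 stood at 2922, 2285 and 3049 against 953, 1018 and 1068 CPM in liver and at 1.05, 0.931 and 0.530 against 4.70, 6.06 and 11.4 CPM in lung (difference 3.21 ± 0.46, edgeR adjusted p = 0.00118). Apoa2, a main protein of high-density lipoprotein, stood at 28280, 21480 and 14830 against 10820, 11020 and 10780 CPM in liver (difference 2.80 ± 0.62, edgeR adjusted p = 0.00782). In all 3 genes the liver groups did not overlap. Apoa2 has 537 exon bases, Apoc3 1014 and Apoc4 2537. In the shortest of the 10 equal groups of genes by transcript length, the median liver fold change was 0.78 on the log2 scale. With offsets for length and GC content the apolipoprotein list gave 3 positive calls in place of 6. Its median difference was 1.32 in place of 1.59. The part of length in the liver fold changes of these genes was not tested. Cyp3a11, a drug-oxidising P450, stood at 5467, 8927 and 1443 against 2099, 1011 and 2396 CPM in liver, groups that overlapped, and its difference of 3.19 ± 0.73 (edgeR adjusted p = 0.0093) drew on a lung fold change of -2.95.

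**Figure D5:**
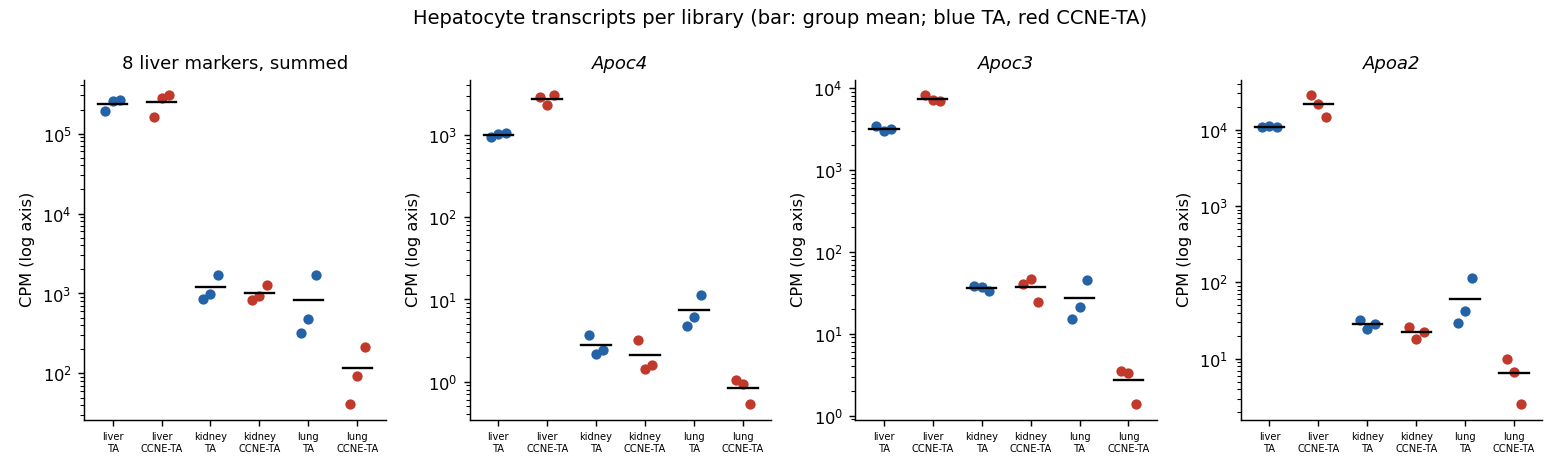
Summed CPM of 8 liver markers and CPM of Apoc4, Apoc3 and Apoa2 on log axes in each library by tissue and genotype (blue TA, red CCNE-TA, bar the group mean, n = 3 per group; in the first panel the points of a group run from its lowest to its highest library). In lung the CCNE-TA libraries lie under the TA libraries in all 4 panels, whereas in liver the 3 apolipoproteins lie higher in CCNE-TA and the marker sums overlap.

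Hepatocyte transcription factors gave 3 positive and 2 negative calls out of 23, or 21.7%, close to the 19.8% of all genes. The positive count was 0 with kidney alone as reference and 1 on leaving out any of kidney CCNE-TA 2, kidney TA 1, liver CCNE-TA 1, 2 or 3, liver TA 3, lung CCNE-TA 2, lung TA 2 or lung TA 3, and the negative count was 5 without lung TA 3 and 1 without liver CCNE-TA 3, liver TA 1 or liver TA 3. Rxra, the partner of most lipid-sensing nuclear receptors, stood at 359, 442 and 355 against 992, 970 and 1005 CPM in liver, with kidney and lung fold changes of 0.35 and -0.09. Its liver difference was -1.49 ± 0.31 (edgeR adjusted p = 0.00573), and it kept its call in all other settings. Complement and coagulation genes gave 1 positive and 4 negative calls out of 44, or 11.4%. Of the 44, 22 were lower in all CCNE-TA than in all TA liver libraries. Over all tested genes 41.8% did not overlap between the liver groups in 1 direction or the other. The urea cycle and periportal list gave 1 call of 21 (4.76%) and that of the pericentral zone 3 of 24 (12.5%).

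A few genes moved in opposite directions. Apart from Emr1, 4 called genes had kidney and lung fold changes both opposite to that in liver and at least 1 in size. Akr1c18, which inactivates progesterone, stood at 3.58, 13.3 and 18.6 CPM in CCNE-TA liver and 0.140, 0.188 and 0 CPM in TA liver, where the values lie near 3 counts. In kidney Akr1c18 stood at 105, 61.3 and 13.7 against 317, 174 and 10.2 CPM, and in lung at 0.0257, 0.0477 and 0.603 against 1.20, 1.57 and 1.04 CPM. The liver and lung groups did not overlap and the kidney groups did. The difference of Akr1c18 was 8.70 ± 1.83 (edgeR adjusted p = 0.00765). Cldn14, a claudin, was high in liver alone, at 33.8, 34.1 and 26.3 against 19.96, 17.5 and 47.9 CPM, and its difference of 2.77 ± 0.81 (edgeR adjusted p = 0.0273) came from kidney and lung levels of at most 0.565 CPM. It was lost without liver CCNE-TA 1, liver TA 1 or liver TA 2, at adjusted p values of 0.0564, 0.0584 and 0.0645. Sult2a1, a bile acid and steroid sulfotransferase of female liver, stood at 41.2, 47.7 and 0.308 against 1.35, 0 and 0 CPM in liver and lost its call in 20 of 37 other settings. Gpr12, an orphan receptor, lost its call in 26 of 38.

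Other transcripts of low control level completed the list of leading positive genes. Ifi27l2b, of an interferon-induced family, stood at 175, 213 and 156 against 18.3, 3.39 and 6.95 CPM in liver and at most 0.796 CPM in every kidney and lung library (difference 4.40 ± 0.69, edgeR adjusted p = 0.00196). Raet1e, a ligand by which stressed cells are seen by NK cells, stood at 13.4, 15.3 and 14.04 against 0.280, 1.32 and 0.438 CPM (difference 3.91 ± 0.81, edgeR adjusted p = 0.00591), with 23.0% of its exon bases shared with another gene. Bex4, an X-linked gene, stood at 8.40, 5.96 and 5.89 against 0.449, 0.188 and 0.292 CPM (difference 4.42 ± 0.51, edgeR adjusted p = 0.000347). In each the 3 CCNE-TA liver libraries lay well above the TA libraries. Sult1e1, the oestrogen sulfotransferase, stood at 36.3, 38.5 and 10.9 against 1.35, 0.564 and 0.632 CPM in liver (difference 4.47 ± 1.24, edgeR adjusted p = 0.0214) and was lost without kidney TA 1 or TA 3, at 0.0857 and 0.0797, with kidney levels near or under 3 counts. Cyp26a1, which degrades retinoic acid, had a difference of 3.92 (edgeR adjusted p = 0.0182), with adjusted p values of 0.0619 without liver CCNE-TA 1 and 0.05 without liver TA 3.

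Markers of other organs also differed between the liver groups. Of 10 lung markers, 5 had a positive liver difference, or 50.0% against 9.83% of all genes. Their medians were 1.10 in liver, -1.50 in kidney and -0.01 in lung. Sftpd, the surfactant protein D, stood at 11.7, 8.75 and 11.1 against 2.16, 1.79 and 1.70 CPM in liver. In kidney Sftpd stood at 0.417, 0.246 and 0.269 against 1.42, 0.532 and 0.527 CPM, and its difference was 3.14 ± 0.39 (edgeR adjusted p = 0.00051). The summed lung markers overlapped between the liver groups, at 84.1 to 113 CPM against 95.5 to 111 CPM, while in kidney the sum was 28.9 to 42.2 CPM in CCNE-TA and 52.1 to 141 CPM in TA. Of 16 pancreas markers, 6 passed the filter on low counts. Of these 6, 3 were negative, or 50.0%, and of all genes 9.94% were. Among them was Cpb1, at 0, 0.164 and 0 against 23.6, 7.29 and 0 CPM in liver. Ctrb1, at 0.1326, 0.08215 and 0.3075 against 112.5, 19.23 and 0.6809 CPM, lost its call on leaving out any of 15 of the 18 libraries. A marker can pass the filter through TA liver, where it is high, so these shares are not on an equal footing. The summed pancreas markers were 16.8 to 26.1 CPM in CCNE-TA liver and 39.4 to 451 CPM in TA liver. The part of tissue carried over between organs in these values was not tested.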

How the data were processed

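The series holds 18 RNA-seq libraries of whole organs, 3 per tissue and genotype. The authors deposited 1 table of raw counts per gene. Per the submitters' processing notes, reads were handled with TopHat2 2.0.14, Bowtie2 2.2.6 and featureCounts 1.4.6 on mm10. Which gene models were counted, whether strand was used and what became of multi-mapping reads is not given in the sources used here. The library kit, TruSeq RNA v2 per the labels, does not mark strand. All columns of the table matched a library by name and 0 were left out.

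Counts were fitted with edgeR 4.0.16 in R 4.3.3: filterByExpr on the 6 groups, TMM scaling over all libraries, robust dispersions and the quasi-likelihood F test. The contrast weighted kidney and lung by 0.5 each. Benjamini-Hochberg adjustment ran over 17155 genes with a threshold of 0.05. Errors are log2 differences divided by the square root of F. CPM used the same TMM factors, and a level of 3 counts served as floor. The errors include the spread between libraries in the fit, whereas the floor covers counting error only. In simulated counts for this contrast over 16976 genes, 100 genes were changed 2-fold, 100 were changed 4-fold and the rest were left unchanged. Of these, 10% of the 2-fold and 70% of the 4-fold changes were found, and 6 of 86 calls (6.98%) were false. The share found depends on how many genes change, and 19.8% of genes were called in the data. The simulation therefore does not give the power in these data.

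Named genes were Ccne1, up to 12 per direction with the largest differences among called genes with a mean log2 CPM of at least 1 and no overlap of the groups in liver, up to 8 per direction by smallest p among genes of at least 1 CPM in each tissue, up to 4 members per described list by smallest p, and up to 6 genes of opposite direction by at least 1 in both other organs. Other members named were chosen after their values were seen. A few genes that the rule names are not reported here. The comparison and the 46 gene lists (1299 genes) were chosen with earlier results of these data known.

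Alternatives were DESeq2 1.42.0, limma-voom (limma 3.58.1), other scalings and filters, offsets for length and GC content, Xist as a covariate, replicate blocks, a term for liver TA 2 and TA 3, each reference organ alone and each library left out. Scaling within each tissue, and leaving out lung TA 3 and kidney TA 1 together, were added after seeing the data. Transcript lengths came from GENCODE M21 and promoter sequences from RefSeq.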

Additional observations from a re-analysis of the deposited data

Results flagged for a closer look

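The genotype effect in liver differed from that in kidney and lung, by the test of the difference itself (edgeR adjusted p under 0.05), in 43 of the genes that were named over the whole table. The log2 liver difference stands in brackets. It was positive in Gm3776 (5.45), Gsta1 (5.08), Sult1e1 (4.47), Ifi27l2b (4.40), Meg3 (4.28), 2210417A02Rik (4.17), 4930404H11Rik (4.03) and Mybl1 (3.93). Positive differences were also found in Cyp26a1 (3.92), Raet1e (3.91), Gstm3 (3.87), Chrna4 (3.69), Gipc2 (4.61), Phlda3 (2.97), Mtmr11 (3.57) and Spint1 (2.35). The remaining positive differences were those of Ddit4l (3.50), Ccdc120 (3.62), Bex4 (4.42), Bax (1.56), Akr1c18 (8.70), Sult2a1 (7.52), Cldn14 (2.77) and Gpr12 (4.17). It was negative in Mob1a (-4.42), Lmbrd2 (-4.32), Mia2 (-4.32), Uhmk1 (-4.21), Pdpr (-4.16), Rassf8 (-4.11) and Stard4 (-4.10). Negative differences were also found in Pik3ap1 (-4.10), Megf9 (-4.07), Cyb5d1 (-3.84), Xpnpep3 (-3.79), Eif4ebp2 (-3.78), BC005537 (-1.63) and Ppp2r5a (-1.59). The remaining negative differences were those of Ipo8 (-1.47), Capza2 (-1.76), Alg10b (-3.29), Dnajc14 (-1.71) and Emr1 (-3.11). Other called genes stand beside their lists. Psca was the 1 gene whose genotype effect differed between kidney and lung, by -6.62 on the log2 scale (edgeR adjusted p = 0.000204).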

How the results depend on the processing

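Of the 3392 calls (1687 positive, 1705 negative), positive calls numbered 2624 with DESeq2 and 1086 with limma-voom, and negative calls 1107 under upper quartile and 1123 under total count scaling. Against kidney alone 1634 genes were called (820 and 814), and against lung alone 2184 (1068 and 1116). A term for liver TA 2 and TA 3 left 726 (285 and 441). That term left liver TA 1 as the only liver control, so its count of calls does not show how far the differences held. The median error of the main calls was 0.422 in that fit and 0.325 in the main fit. Leaving out single libraries gave 2077 to 4098 calls, 1037 to 2059 positive and 979 to 2039 negative. Ccne1 turned to -1.60 against kidney alone, and Rpl36 to -0.154 with length and GC offsets. The cause was not tested in any of these. With replicate number as a block of 3 levels 3383 genes were called, and 3437 with a block of 6 levels. With the block of 3 levels and Xist 1050 were called (442 and 608) and Ccne1 stood at -0.0533, and with that block and the offsets Rpl36 stood at -0.149. Deviations of same-numbered libraries correlated at -0.453 to 0.588 between genotypes (4 of 9 pairs over 0.1) and at -0.307 to 0.629 between organs of a genotype (12 of 18). Same-numbered pairs that differed in both organ and genotype correlated at -0.222 to 0.453 (10 of 18). The pairs over 0.1 included all 9 between organs of CCNE-TA and the 3 between kidney genotypes, whereas TA organs and lung genotypes held pairs below 0. Libraries of different genotype cannot come from the same mouse, yet some of those pairs passed 0.1. These correlations therefore do not show whether the numbers pair libraries. Depth limited transcripts near 3 counts, such as Akr1c18 and Dlk1 in TA liver.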

Other observations

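Immediate early genes had median log2 fold changes of 1.26 in liver, 0.24 in kidney and 0.24 in lung, with 2 of 20 called positive against 9.83% of all genes. NF-kappaB and chemokine genes had medians of 1.09, 0.61 and 0.76 with 1 positive call of 23 (4.35%). Heat shock genes had medians of -0.60, -0.07 and -0.33, with 2 positive and 3 negative calls of 29, or 17.2%. Of all genes 19.8% were called and 9.94% had a negative call. The lists that follow are given with their share of calls. Bile acid genes gave 3 positive and 1 negative call of 31 (12.9%). Sulfotransferases and glucuronosyltransferases gave 2 and 3 of 28 (17.9%), and fatty acid oxidation genes 2 and 1 of 35 (8.57%). Proteasome genes gave 3 positive and 4 negative calls of 34 (20.6%), and 0 and 11 with the offsets for length and GC content. Stellate cell and matrix genes gave 1 positive and 2 negative calls of 29 (10.3%). Their summed level was 1910 to 2830 CPM in CCNE-TA liver and 4180 to 5150 CPM in TA liver, but such a sum rests on its most abundant members. The median log2 fold change of the list in liver was 0.03. Without overlap of the liver groups, 5 members were higher and 4 lower in CCNE-TA. Circadian clock genes gave 1 negative call of 19 (5.26%). The insulin-like growth factor axis gave 2 positive and 1 negative call of 22 (13.6%). Acute phase genes gave 1 and 2 of 26 (11.5%), and sex-biased liver genes 3 positive calls of 33 (9.09%).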
